A study of Mus musculus with 10 samples.

Results

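The 9 genes described here encode the proteins that carry the light signal in rod photoreceptors downstream of the visual pigment: *Gnat1*, *Gnb1* and *Gngt1* for the 3 subunits of rod transducin, *Pde6a*, *Pde6b* and *Pde6g* for the subunits of the rod phosphodiesterase, *Cnga1* and *Cngb1* for the subunits of the rod cyclic nucleotide-gated channel, and *Sag* for rod arrestin. They were taken by name from the 54532 genes of an RNA-seq table, and all 9 were found and passed the filter on low values that left 24508 genes for testing. The name of the set, rod activation genes, holds for 8 of the 9 proteins, since arrestin ends the signal, and *Gnb1* is transcribed in many cell types besides rods.

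Expression was measured in neural retinas of 2-month-old BALB/c mice, an albino strain whose eyes lack the pigment that screens the retina from light. After 12 hr without light, all mice spent 1 day either under normal light of 200 lux (NL) or under light of 15000 lux (LD, light damage). Each group has 5 samples, numbered 1, 4, 5, 7 and 8 for NL and 1, 4, 6, 7 and 8 for LD. The study calls them biological replicates and the labels name no animals, so the p-values measure the spread between these samples. The comparison asks which transcripts of the retina differ after 1 day of damaging light. The samples are whole neural retinas, in which fewer cells of a type and less RNA per cell cannot be told apart. In stained sections, the paper saw no obvious degeneration of the retina after 1 day of this light, and degeneration after longer exposure. Whether the number of rods differed in these samples was not tested.

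In a rod, light turns the visual pigment into an active receptor that loads the transducin α subunit with GTP and frees it from the β and γ subunits. The α subunit lifts the inhibitory γ subunits off the catalytic α and β subunits of the phosphodiesterase, which then hydrolyses cyclic GMP. The channel in the outer segment closes as cyclic GMP falls, and the rod hyperpolarises, until a kinase and arrestin silence the pigment and a GTPase-activating complex silences transducin. Cones use a cascade built mostly from paralogs of these genes. Loss-of-function mutations of several of these genes cause retinitis pigmentosa or stationary night blindness.

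The deposited values are FPKM, the number of fragments per kilobase of a gene after scaling for library size. The reads behind them, recovered from the steps of the values, numbered 21343389 to 26832535 in an NL retina and 18965090 to 23378090 in an LD retina, and each of the 9 genes had between 1992 and 215941 reads in every retina. LD-4 and LD-6 were the closest pair of the same group, with a chi-square of 2.65 per gene between their reads, followed by NL-5 and NL-7 at 2.87 and LD-1 and LD-7 at 3.65, against 12.2 or more for the other pairs. These values exceed counting noise, and nothing in the labels says whether such a pair shares an animal, so the 10 retinas were kept as separate samples and results are also given without LD-4 and LD-6.

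All 9 genes were lower after LD. Under the calling rule used throughout, an adjusted p under 0.01 in limma on log2(FPKM + 0.1) and a change of more than 2-fold, 9 of 9 were called lower, beside 2.37% of the 24508 genes tested (582 genes). Calls in either direction made up 6.51% and calls of a higher level 4.13% of the genes tested. In all 9, every LD retina was below every NL retina, which held for 10.6% of the genes tested, and the two-sided exact permutation test gave p = 0.00794 for each gene, the smallest that 5 against 5 retinas allow. The median log2 fold change of the 9 genes was -2.06, and that of all genes tested was -0.01. The summed FPKM of the 9 genes was 6085 to 6909 in the NL retinas, with a median of 6649, and 1037 to 2074 in the LD retinas, with a median of 1730. As a share of all reads, they took up 2.64% to 2.86% under NL and 0.556% to 1.05% after LD.

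**Figure D1:**
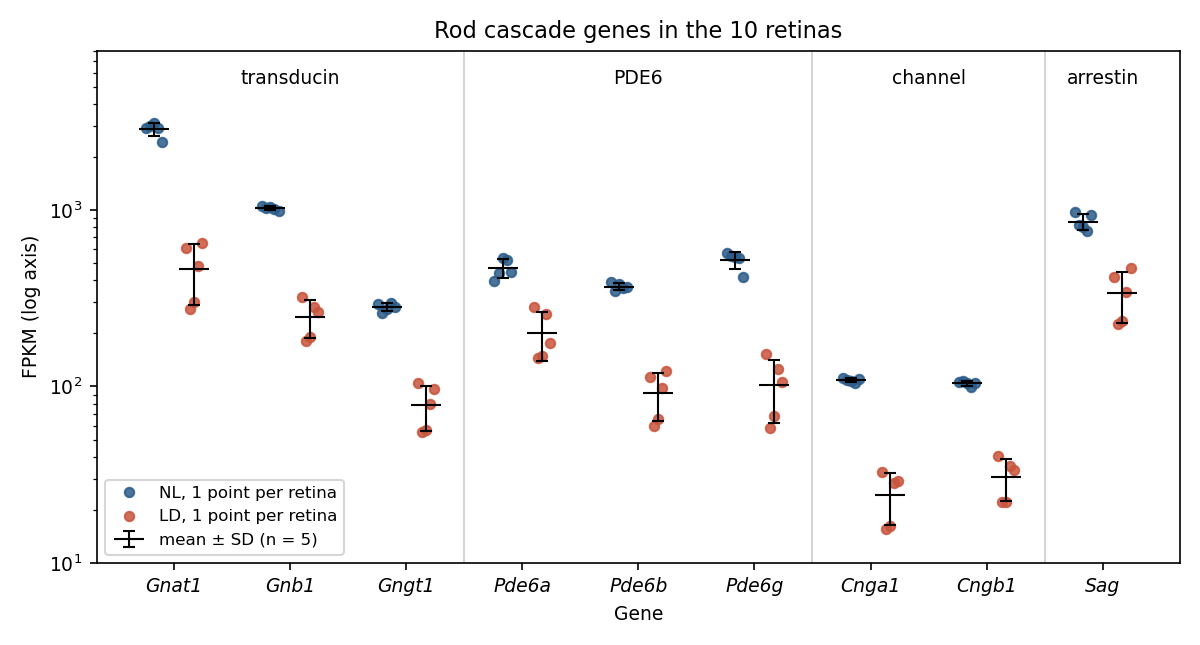
FPKM (log axis) of the 9 rod cascade genes in each of the 5 NL retinas (blue) and 5 LD retinas (red), grouped by the protein complex, with the mean and SD as black bars. The LD points of every gene lie below its NL points, from *Gnat1* (2874 to 464 FPKM on average) to *Sag* (861 to 338 FPKM), and are spread more widely.

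Transducin, the G protein of the rod, lost most of its transcript in all 3 subunits. *Gnat1*, the α subunit that binds GTP and activates the phosphodiesterase (ENSMUSG00000034837, GRCm38 chr9:107674474-107679712, minus strand), was measured at 2911, 2979, 3119, 2929 and 2431 FPKM in NL-1, NL-4, NL-5, NL-7 and NL-8. In LD-1, LD-4, LD-6, LD-7 and LD-8 its values were 611, 274, 299, 484 and 653 FPKM. The highest LD value was thus far below the lowest NL value, and LD-4 and LD-6 held the lowest values. Its mean dropped 6.19-fold, from 2874 ± 260.4 FPKM under NL to 464 ± 174 FPKM (± SD over 5 retinas). The log2 fold change was -2.71 ± 0.26 (SE; limma, adjusted p = 3.03e-05). The falls in fold given for single members are ratios of mean FPKM and differ somewhat from the limma values, which compare means of log2 values. *Gnat1* ranked 35 of the 24508 genes tested by its decrease, and 6 among the 12689 protein-coding genes with at least 1 FPKM in the mean of a group.

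*Gnb1*, the β1 subunit that holds transducin together with its γ subunit (ENSMUSG00000029064, chr4:155491361-155559269, plus strand), was the steadiest of the transducin genes under NL. Its NL values were 1052, 1031, 1040, 1014 and 991.7 FPKM, and its LD values 319, 181, 191, 282 and 266 FPKM, in the same order of retinas. It fell 4.14-fold, from 1026 ± 23.5 to 248 ± 59.8 FPKM (log2 fold change -2.08 ± 0.16, limma adjusted p = 6.06e-06, the lowest of the 9 genes). The LD values were again lowest in LD-4 and LD-6, and the 2 groups were far apart. *Gngt1*, the γ1 subunit that carries the lipid anchor of rod transducin (ENSMUSG00000029663, chr6:3993792-3997436, plus strand), ranged from 261 to 297 FPKM under NL and from 55.1 to 104 FPKM after LD. Its mean fell 3.59-fold, from 281 ± 14.3 to 78.3 ± 22.3 FPKM (log2 fold change -1.89 ± 0.17, limma adjusted p = 2.29e-05).

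The phosphodiesterase subunits fell to unequal extents. *Pde6g*, the inhibitory γ subunit that transducin displaces (ENSMUSG00000025386, chr11:120447605-120453500, minus strand), had NL values of 567, 550.0, 541, 533 and 416 FPKM and LD values of 153, 58.4, 67.6, 125 and 106 FPKM. NL-8 lay apart from the other NL retinas, and still above every LD retina. The mean fell 5.11-fold, from 521 ± 60.1 to 102 ± 39.6 FPKM (log2 fold change -2.44 ± 0.25, limma adjusted p = 4.52e-05). *Pde6b*, the catalytic β subunit (ENSMUSG00000029491, chr5:108388391-108432397, plus strand), ranged from 346 to 389 FPKM in the NL retinas, and its LD values were 113, 59.5, 65.2, 98.6 and 122 FPKM. It fell 4.02-fold, from 368 ± 17.0 to 91.7 ± 28.2 FPKM (log2 fold change -2.06 ± 0.19, limma adjusted p = 2.52e-05). Its catalytic partner fell less.

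*Pde6a*, the catalytic α subunit (ENSMUSG00000024575, chromosome 18, 61220482 to 61289924, plus strand), gave 398, 439.7, 538, 519 and 446 FPKM in the NL retinas and 282, 146, 149, 256 and 176 FPKM in the LD retinas. The groups did not overlap, but LD-1 and LD-7 kept over 250 FPKM where LD-4 and LD-6 had under 150 FPKM. The mean fell 2.32-fold, from 468 ± 58.4 to 202 ± 63.1 FPKM (log2 fold change -1.26 ± 0.19, limma adjusted p = 0.000762), the smallest decrease of the 9 genes. Without LD-4 and LD-6 the log2 fold change of *Pde6a* was -0.996 (limma adjusted p = 0.00323), which is just under 2-fold, so that 8 of the 9 genes remained called. With quantile normalization it was -0.94 (limma adjusted p = 0.0064), also under 2-fold.

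Both channel subunits fell, *Cnga1* more than *Cngb1*. *Cnga1*, which forms the cation pore with its cyclic GMP site (ENSMUSG00000067220, chr5:72603696-72644275, minus strand), was at 105 to 111 FPKM in all NL retinas. After LD it was at 32.8, 15.5, 16.1, 28.3 and 29.2 FPKM, so that LD-4 and LD-6 had 14.3% and 14.9% of the NL mean left. The mean fell 4.45-fold, from 108 ± 2.53 to 24.4 ± 8.0 FPKM (log2 fold change -2.22 ± 0.20, limma adjusted p = 2.32e-05). *Cngb1*, the modulatory subunit that tethers the channel to the disc rim (ENSMUSG00000031789, chr8:95239045-95306585, minus strand), ranged from 98.7 to 108 FPKM in the NL retinas, with LD values of 40.4, 22.2, 22.1, 35.4 and 33.4 FPKM. It fell 3.40-fold, from 104 ± 3.47 to 30.7 ± 8.22 FPKM (log2 fold change -1.81 ± 0.16, limma adjusted p = 1.97e-05). The SD of both channel genes under NL was at most 3.47 FPKM, the smallest of the set, as were their levels. As a percent of the mean the SD was 2.33% for *Cnga1* and 3.32% for *Cngb1*, and it was lowest for *Gnb1*, at 2.30%.

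*Sag*, rod arrestin, which binds the phosphorylated pigment and stops it from activating transducin (ENSMUSG00000056055, chr1:87803680-87845158, plus strand), fell less than 7 of the other 8 genes. Its NL values were 974, 825, 804, 759 and 940.1 FPKM, and its LD values 418, 225, 236, 342 and 468 FPKM. The mean fell 2.55-fold, from 861 ± 92.1 to 338 ± 108 FPKM (log2 fold change -1.40 ± 0.21, limma adjusted p = 0.000593). With quantile normalization its log2 fold change was -0.85 (limma adjusted p = 0.0147), which is not called, and *Sag* and *Pde6a* were the 2 genes that any alternative took out of the call.

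The order of loss, from the largest decrease to the smallest, was *Gnat1*, *Pde6g*, *Cnga1*, *Gnb1*, *Pde6b*, *Gngt1*, *Cngb1*, *Sag* and *Pde6a*. On average 16.2% of the NL level of *Gnat1* was left, 19.6% of *Pde6g*, 22.5% of *Cnga1*, 24.1% of *Gnb1*, 24.9% of *Pde6b*, 27.8% of *Gngt1*, 29.4% of *Cngb1*, 39.3% of *Sag* and 43.1% of *Pde6a*. The first 5 genes of this order fell more than 4-fold. With quantile normalization, which gives every retina the same distribution of values, 2 of the 9 genes kept their place, *Cnga1* came first at -2.19 and *Gnat1* after *Pde6g* and *Pde6b* at -1.82, and *Sag* and *Pde6a* were still the last 2. Among all genes tested their ranks by decrease were 35, 66, 103, 139 and 144, and those of the last 4 were 192, 231, 511 and 677. By FPKM lost, which weighs abundant transcripts more, *Gnat1* ranked 2, *Gnb1* 5, *Sag* 10 and *Pde6g* 13 of the 24508 genes, and 7 of the 9 genes were in the top 50.

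Because the ratio of 2 genes within a retina does not depend on how the library was scaled, the unequal loss was tested as log2 ratios in each retina (exact permutation tests, adjusted over 36 pairs by the Benjamini-Hochberg method, threshold 0.05). The ratio differed between LD and NL in 28 of the 36 pairs, and in 18 pairs the groups did not overlap. The pairs share genes and so are not independent, and pairs of other genes were not tested. *Gnat1* differed from 7 of the other 8 genes, all but *Pde6g* (change of the log2 ratio -0.28, exact permutation test, adjusted p = 0.0762). *Sag* and *Pde6a* each differed from the 7 genes that fell more, and the ratio between them changed by -0.14, which the exact permutation test did not separate from 0 (adjusted p = 0.547).

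Within transducin, the log2 ratio of the α subunit to the β subunit was 1.48 ± 0.11 under NL and 0.85 ± 0.28 after LD (SD, n = 5; exact permutation test, adjusted p = 0.0238), or 2.79 and 1.81 as a ratio of FPKM. That of α to γ went from a ratio of 10.2 to 5.76 (change of the log2 ratio -0.82, exact permutation test, adjusted p = 0.0159). The β and γ genes moved more nearly together, at -0.19 (exact permutation test, adjusted p = 0.0306), a call that was lost in 9 alternatives. Within the phosphodiesterase, *Pde6b* over *Pde6a* went from a log2 ratio of -0.34 ± 0.20 to -1.14 ± 0.35, and *Pde6g* over *Pde6a* changed by -1.18 (exact permutation tests, adjusted p = 0.0159 for both). In the NL retinas *Pde6g* and *Pde6a* were at a ratio of 1.11 by deposited FPKM, and after LD at 0.493. The level of any such ratio depends on the gene lengths used, but its change between groups does not. Per kilobase of the longest principal transcript (described below), mean *Pde6g* stayed above mean *Pde6a*, at 1343 and 461 under NL and at 263 and 199 after LD. Within the channel, *Cnga1* over *Cngb1* went from a log2 ratio of 0.06 ± 0.03 to -0.35 ± 0.13 (exact permutation test, adjusted p = 0.0159).

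*Gnb1* and *Pde6b*, of different complexes, had a ratio of 2.79 under NL and 2.74 after LD (change of the log2 ratio -0.02, exact permutation test, p = 0.929). The other pairs that did not pass were *Pde6g* with *Cnga1* and with *Pde6b*, *Cnga1* with *Gnb1* and with *Pde6b*, and *Gngt1* with *Cngb1*, all within 3 places of each other in the order of loss. Without LD-4 and LD-6 the 28 changes had the same direction in 28 of 28 pairs, and 18 pairs did not overlap, but 0 of the 36 pairs passed. The smallest exact permutation p that 5 against 3 retinas allow is 0.0357, and adjusted over the 36 pairs the smallest p was 0.0714.

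The loss varied between LD retinas more than the levels varied between NL retinas. The coefficient of variation of the 9 genes was 2.30% to 12.5% under NL and 24.1% to 38.8% after LD. The median share of the NL mean left over the 9 genes was 17.7% in LD-4 and 18.6% in LD-6, against 27.5% in LD-7, 31.1% in LD-1 and 32.0% in LD-8. LD-4 and LD-6 were below the other 3 LD retinas in 9 of 9 genes, which was so for 22.3% of all genes tested and for 60.8% of the genes called lower after LD. LD-4 held the lowest value of 8 genes and LD-6 that of *Cngb1*. At the other end, LD-1 was the highest LD retina in 6 genes and LD-8 in 3, *Gnat1*, *Pde6b* and *Sag*. LD-8 was close to LD-1 for *Gnat1* (22.7% and 21.3% of the NL mean left) and apart from it for *Pde6a* (37.6% and 60.2%).

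**Figure D2:**
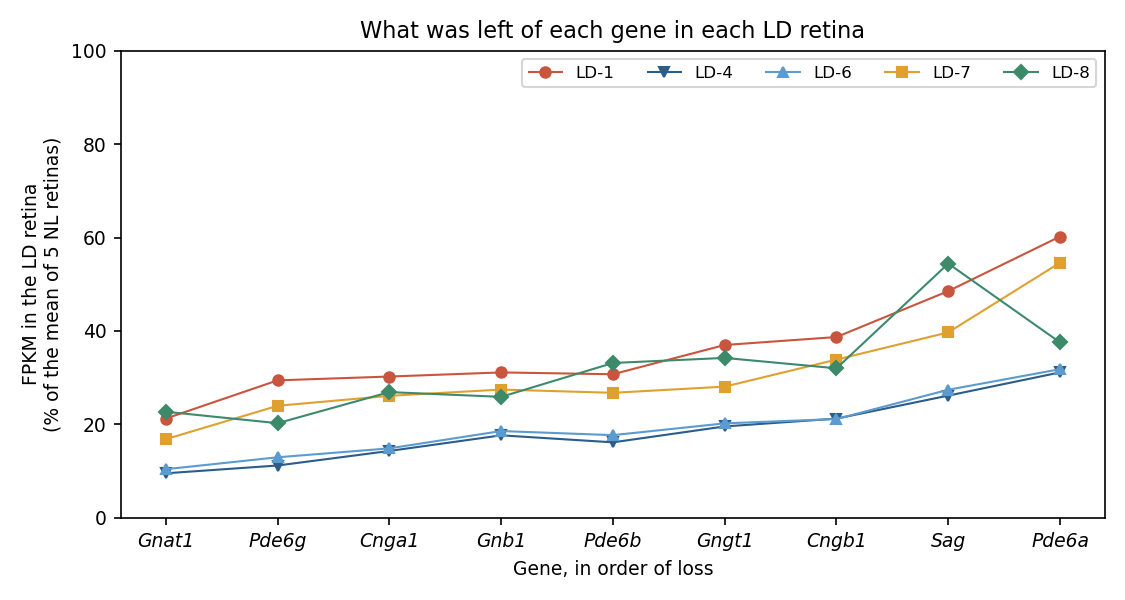
FPKM of each gene in each of the 5 LD retinas as a percent of its mean over the 5 NL retinas, with the genes in order of loss and 1 line per retina. LD-4 and LD-6 run together below the others, from 9.54% and 10.4% for *Gnat1* to 31.1% and 31.8% for *Pde6a*, and LD-8 crosses the lines of LD-1 and LD-7.

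Summed markers of several other cell types moved with this split. The summed FPKM of 5 cone markers was 35.5 and 42.7 in LD-4 and LD-6 and 115 to 148 in the other LD retinas, against 288 to 449 under NL. The summed FPKM of 4 bipolar markers was 198 and 199 in LD-4 and LD-6 and 141 to 171 in the others. The sums of the Müller glia markers (377 and 395 against 282 to 309), the endothelial markers (25 and 26.1 against 12.5 to 17.2), the ganglion cell markers (181 and 182 against 157 to 171) and the horizontal cell markers (15.3 and 14.2 against 11.1 to 12.8) were also higher in LD-4 and LD-6. Not every marker followed its sum. For *Glul* (Müller glia), *Lhx1* (horizontal cells) and *Nefl*, *Pou4f1* and *Rbpms* (ganglion cells), LD-4 and LD-6 were not both above the other LD retinas. *Glul* was lowest in LD-4, at 156 FPKM, and of the ganglion cell markers *Sncg* alone followed the sum. The sums of the markers of microglia and macrophages (50.7 in both against 34.6 to 88.3), of amacrine cells (137 and 136 against 109 to 136) and of the pigment epithelium (95 and 98.8 against 55.6 to 109) overlapped. Mitochondrial reads were 2.22% and 2.09% of the library in LD-4 and LD-6, 1.69% in LD-1, 1.52% in LD-7 and 2.00% in LD-8. The part of these measures in the spread of the rod genes was not tested.

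To show what the members share in sequence, the 250 bases upstream of the RefSeq start (GRCm38.p6) were searched for the CRX core TAATCC, the core TGCTGA of the NRL site and the GC box GGGCGG, each on both strands. CRX and NRL are the transcription factors known for driving rod genes, and GC boxes are common in promoters of broadly transcribed genes. RefSeq windows were matched for 6 of the 9 genes: *Gnb1*, *Gngt1*, *Pde6b*, *Cnga1*, *Cngb1* and *Sag*. The CRX core was in 4 of these 6 windows, those of *Gngt1*, *Cnga1*, *Cngb1* and *Sag*, and in 6.25% of all 32851 windows. The NRL core was in those of *Pde6b* and *Sag* and in 16.1% of all windows, and the GC box in that of *Gnb1* and in 32.7% of all windows. The 4 windows below are given 5′ to 3′ on the strand of the gene and end at the base before the start, with the matches in capitals. They show the gene with a pair of CRX cores (*Cngb1*, chr8:95306586-95306835, minus strand), a gene with both a CRX and an NRL core (*Sag*, chr1:87803430-87803679, plus strand), a CRX core close to the start (*Gngt1*, chr6:3993758-3994007, plus strand), and the window with GC boxes only (*Gnb1*, chr4:155491111-155491360, plus strand).
Cngb1: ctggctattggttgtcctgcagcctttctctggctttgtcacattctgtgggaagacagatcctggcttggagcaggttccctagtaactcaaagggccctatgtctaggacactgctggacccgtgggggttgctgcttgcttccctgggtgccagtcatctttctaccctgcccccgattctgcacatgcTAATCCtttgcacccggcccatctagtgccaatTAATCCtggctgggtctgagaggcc
Sag: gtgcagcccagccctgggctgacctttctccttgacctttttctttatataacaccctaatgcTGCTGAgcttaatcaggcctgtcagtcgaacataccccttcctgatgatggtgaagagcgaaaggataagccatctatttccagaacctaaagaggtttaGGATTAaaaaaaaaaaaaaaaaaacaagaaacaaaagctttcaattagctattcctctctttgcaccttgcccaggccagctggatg
Gngt1: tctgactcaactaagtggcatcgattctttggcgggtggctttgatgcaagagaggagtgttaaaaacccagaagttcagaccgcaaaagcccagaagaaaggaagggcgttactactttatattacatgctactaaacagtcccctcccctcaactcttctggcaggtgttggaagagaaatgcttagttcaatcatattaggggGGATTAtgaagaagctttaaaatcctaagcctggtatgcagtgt
Gnb1: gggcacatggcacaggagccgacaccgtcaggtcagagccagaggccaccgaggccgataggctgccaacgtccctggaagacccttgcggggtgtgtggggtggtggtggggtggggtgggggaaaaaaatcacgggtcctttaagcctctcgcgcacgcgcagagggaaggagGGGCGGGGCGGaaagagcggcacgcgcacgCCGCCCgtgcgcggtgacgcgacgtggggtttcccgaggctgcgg

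In the *Cngb1* window the CRX cores lie 58 to 53 and 25 to 20 bases before the start. In the *Sag* window the NRL core lies 187 to 182 bases and the CRX core, read on the other strand as GGATTA, 87 to 82 bases before the start. *Gngt1* has its CRX core, also as GGATTA, 44 to 39 bases before the start. The RefSeq start of *Gngt1* lies inside the gene as deposited (chr6:3993792-3997436), so most of this window, with the core, overlaps the deposited gene. The window of *Cnga1* likewise lies within its deposited gene. *Gnb1* has 3 GC boxes, of which the first 2 overlap by 1 base, and a GC content of 69.2%, against 44% for *Gngt1*, 42.8% for *Sag*, 55.6% for *Cngb1* and a median of 52.4% over all windows. The genes with a window fell 4.45-fold (*Cnga1*), 4.14-fold (*Gnb1*), 4.02-fold (*Pde6b*), 3.59-fold (*Gngt1*), 3.40-fold (*Cngb1*) and 2.55-fold (*Sag*). A link between the matches and the size of the loss was not tested. The matches are letters in a window and do not show that a factor binds there.

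The order of the levels themselves depends on the length by which reads are divided. By deposited FPKM, the NL order was *Gnat1*, *Gnb1*, *Sag*, *Pde6g*, *Pde6a*, *Pde6b*, *Gngt1*, *Cnga1* and *Cngb1*, and the neighbours whose NL ranges overlapped were *Pde6g* with *Pde6a* and *Cnga1* with *Cngb1*. After LD the order was *Gnat1*, *Sag*, *Gnb1*, *Pde6a*, *Pde6g*, *Pde6b*, *Gngt1*, *Cngb1* and *Cnga1*, and all neighbours overlapped except *Gngt1* and *Cngb1*. The deposited length of *Sag* is 8904 bases, the union of all its annotated exons, while its longest principal transcript in GENCODE M21 has 1719 bases, 5.18 times fewer.

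Per kilobase of that transcript, *Sag* was at 4457 ± 477 under NL and *Gnat1*, with 2328 bases, at 3739 ± 339 (fragments per kilobase scaled to the library size, SD, n = 5), so that *Sag* moved from place 3 to place 1. *Pde6a*, whose lengths are nearly equal at 4521 and 4588 bases, moved from place 5 to place 7. This scale assigns all reads of a gene to its longest principal transcript, also reads from its other annotated exons. The new places rest on that assumption. After LD, *Sag* was at 1750 ± 559 and *Gnat1* at 604 ± 226 on this scale. The change of a gene between groups does not depend on its length. By deposited FPKM 7 of the 9 genes were among the 100 highest of all genes tested under NL, with *Gnat1* at rank 5, *Gnb1* at 12 and *Sag* at 14, and all 9 among the 250 highest.

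**Figure D3:**
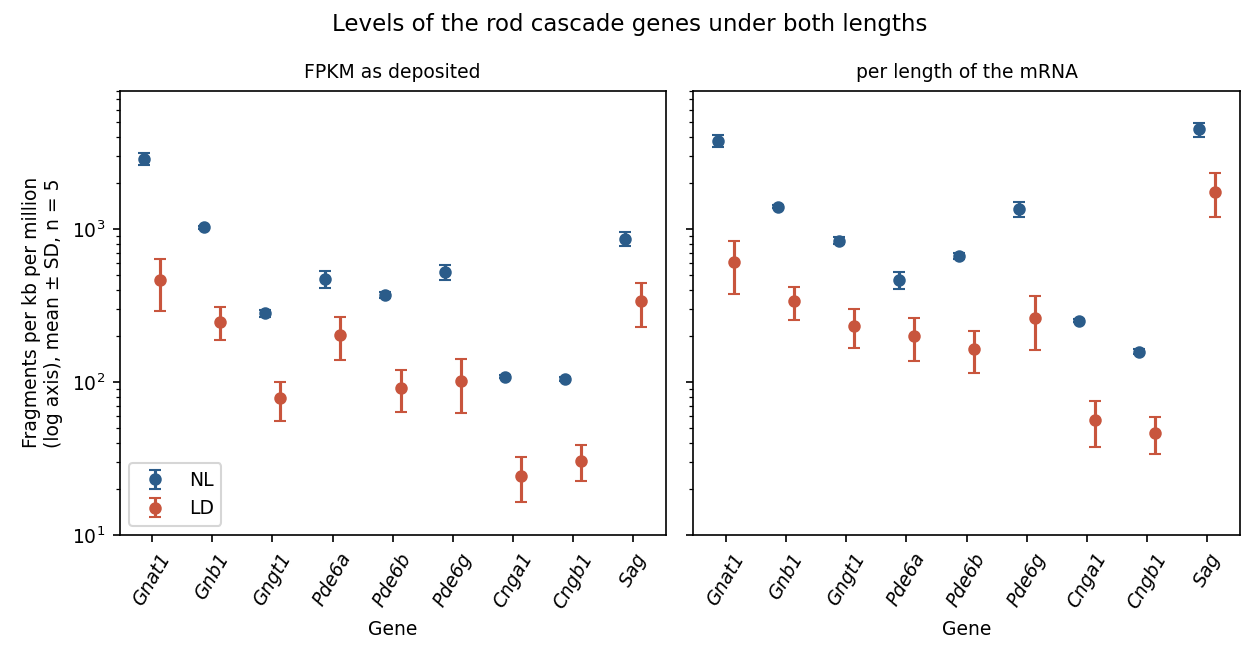
Mean level ± SD (n = 5, log axis) of the 9 genes in NL (blue) and LD (red) retinas, as deposited FPKM (left) and per kilobase of the longest principal transcript (right). *Gnat1* is highest on the left with 2874 under NL, *Sag* is highest on the right with 4457, and the distance between NL and LD of each gene is the same in both panels.

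Most cone counterparts changed less than the rod genes, and 1 of them rose. This does not extend to the cone opsin genes, which are not among the counterparts. *Opn1sw* had a log2 fold change of -2.86 ± 0.51 (SE; limma adjusted p = 0.00194), beside -2.71 ± 0.26 for *Gnat1*. By mean FPKM *Opn1sw* fell 5.71-fold, less than the 6.19-fold of *Gnat1*. These genes were not tested against each other. That of *Opn1mw* was -2.18 (limma adjusted p = 0.00191). Of the 8 cone genes (*Gnat2*, *Gnb3*, *Gngt2*, *Pde6c*, *Pde6h*, *Cnga3*, *Cngb3* and *Arr3*), 2 were called lower, 1 higher and 5 not called, with a median log2 fold change of -0.80. *Arr3*, cone arrestin, fell from 105 ± 24.3 to 32.2 ± 19.5 FPKM (log2 fold change -1.97 ± 0.46, limma adjusted p = 0.00854). This call was lost in 14 of the 24 alternatives that kept the calling rule, also when any of the 5 NL retinas, LD-4 or LD-6 was left out, at adjusted p of up to 0.0459 in limma. *Gnat2*, the cone α subunit, fell from 49.5 ± 4.54 to 18.7 ± 5.93 FPKM (log2 fold change -1.46 ± 0.20, limma adjusted p = 0.000357). The 5 not called had log2 fold changes of -0.96 (*Pde6h*) to -0.48 (*Pde6c*). At an adjusted p under 0.05 with no minimum fold, 6 of the 8 were lower, beside 13.4% of all genes tested.

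*Gnb3*, the β3 subunit that serves transducin in cones and the G protein of ON bipolar cells (ENSMUSG00000023439, chr6:124834240-124840275, minus strand), went the other way. It was at 344, 236, 214, 211 and 344 FPKM in the NL retinas and at 885, 502, 545.5, 797 and 532 FPKM in the LD retinas. Every LD value was above every NL value, and NL-1 and NL-8 stood above the other NL retinas. The mean rose from 270.0 ± 68.4 to 652 ± 176 FPKM (log2 fold change 1.27 ± 0.21, limma adjusted p = 0.00127), the largest gain in FPKM among the 24508 genes tested. It stayed higher in 24 of 24 alternatives, at log2 fold changes of 1.15 to 2.01, and missed the adjusted p in 2, the replicate block and the average of the closest pairs (up to 0.0204 in limma). The ratio of *Gnb1* to *Gnb3* was 3.89 under NL and 0.381 after LD (log2 ratio 1.96 ± 0.36 and -1.39 ± 0.22; exact permutation test, adjusted p = 0.0102). By deposited FPKM, the more abundant of the 2 β genes was thus *Gnb1* in every NL retina and *Gnb3* in every LD retina. The 4 bipolar markers (*Grm6*, *Trpm1*, *Prkca* and *Cabp5*) were 0 lower and 0 higher of 4 by this rule, and also 0 and 0 at an adjusted p under 0.05 with no minimum fold, with a median log2 fold change of -0.25 in limma and a summed FPKM of 162 to 217 under NL and 141 to 199 after LD.

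As ratios within a retina, 8 of the 9 rod genes fell against their cone counterpart (exact permutation tests, adjusted over 9 pairs). *Gnat1* over *Gnat2* went from a ratio of 57.9 to 24.3, *Pde6g* over *Pde6h* from 78.7 to 28.3, *Cnga1* over *Cnga3* from 52.8 to 18.6 and *Pde6b* over *Pde6c* from 21.4 to 7.14 (exact permutation test, adjusted p = 0.0102 for each). *Gngt1* over *Gngt2* and *Cngb1* over *Cngb3* changed by -1.04 and -1.06 on the log2 scale at the same adjusted p. *Pde6a* over *Pde6c* changed by -0.78 with overlapping groups (exact permutation test, adjusted p = 0.0268), a call that 8 alternatives lost. *Sag* over *Arr3* was 8.32 under NL and 12.3 after LD, with overlapping groups (change of the log2 ratio 0.57, exact permutation test, p = 0.167). Without LD-4 and LD-6, 7 of the 9 pairs passed. *Pde6h* overlaps *Arhgdib* on the opposite strand, with means of 0.557 FPKM (NL) and 2.42 FPKM (LD), and the use of strand in the counting is not given.

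**Figure D4:**
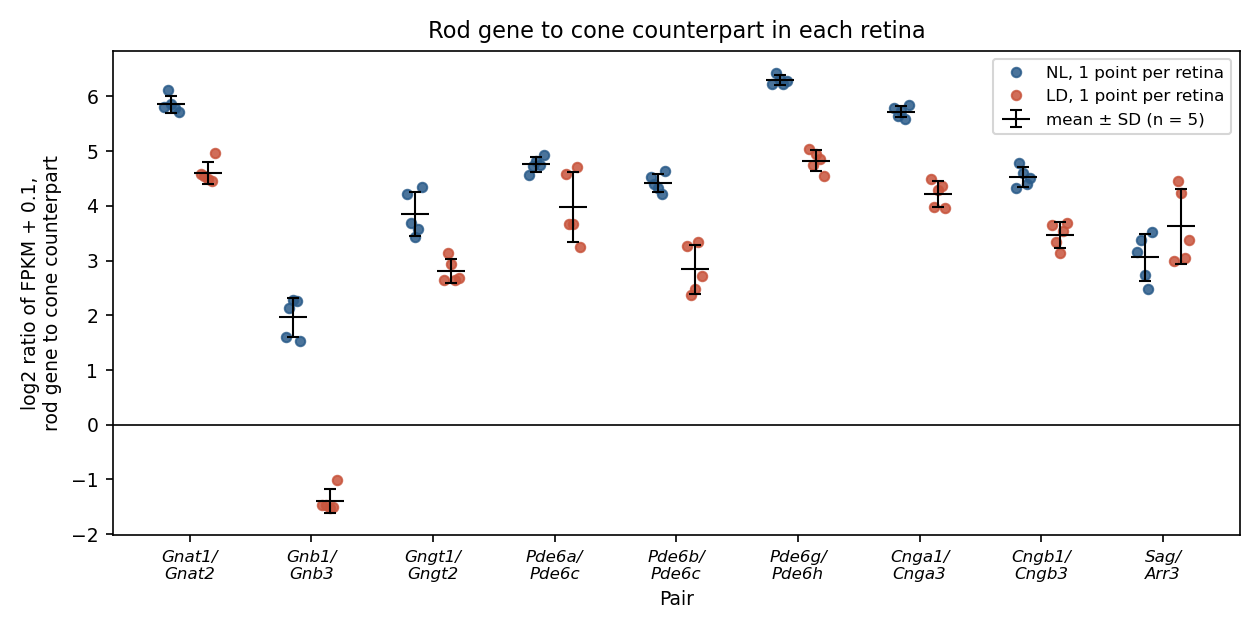
The log2 ratio of FPKM + 0.1 of each rod gene to its cone counterpart in each of the 5 NL (blue) and 5 LD (red) retinas, with mean and SD as black bars. The ratio falls in 8 of 9 pairs, most for *Gnb1* to *Gnb3*, where it crosses 0 from 1.96 to -1.39, while the points of *Sag* to *Arr3* overlap.

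Genes that end the light response, not all of them particular to rods, fell with the cascade. Of 11 genes for recovery and calcium feedback, 11 were called lower and 0 higher, with a median log2 fold change of -1.84 (-0.01 over all genes tested). Without LD-4 and LD-6, 8 of the 11 were called, and *Rgs9*, *Gnb5* and *Gucy2e* were under 2-fold. *Rgs9* also lost its call without LD-4 alone, without the factor per retina, and in the 8 retinas of the replicate block with and without the block, which left 10 of the 11. *Pdc*, phosducin, which binds the β and γ subunits of transducin, had the largest decrease, from 416 ± 13.1 to 94.3 ± 25.3 FPKM (log2 fold change -2.19 ± 0.17, limma adjusted p = 7.47e-06). *Grk1*, the kinase that phosphorylates the pigment for arrestin, fell from 216 ± 15.7 to 75.3 ± 22.7 FPKM (log2 fold change -1.57 ± 0.19, limma adjusted p = 0.000164). *Rgs9*, which speeds the GTPase of the transducin α subunit, had the smallest decrease, from 119 ± 5.09 to 57.3 ± 19.0 FPKM (log2 fold change -1.12 ± 0.19, limma adjusted p = 0.00138), and the log2 fold changes of its anchor *Rgs9bp* and its partner *Gnb5* were -1.94 and -1.15. Those of *Guca1a* and *Guca1b*, the calcium sensors of guanylate cyclase, were -2.12 and -2.09, and those of the cyclases *Gucy2e* and *Gucy2f* were -1.22 and -1.84. *Slc24a1*, the exchanger that extrudes calcium from the rod, was at -2.17 on this scale and *Rcvrn*, recoverin, at -1.71.

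Genes that help to assemble or carry these proteins moved less. Of 6 such genes, 1 was called lower and 0 higher, with a median of -0.62. *Unc119*, which carries lipid-modified transducin α to the outer segment, fell from 584 ± 25.1 to 231 ± 41.3 FPKM (log2 fold change -1.36 ± 0.12, limma adjusted p = 2e-05). *Arl3*, *Aipl1*, *Pde6d* and *Pdcl* had log2 fold changes of -0.73, -0.66, -0.58 and -0.35, all under 2-fold (limma adjusted p = 9.62e-05, 0.0275, 0.000386 and 0.000215). That of *Rp2* was -0.02 (limma adjusted p = 0.893). At an adjusted p under 0.05 with no minimum fold, 5 of the 6 were lower, beside 13.4% of all genes tested. Of 7 G protein subunits of other retinal neurons (*Gnao1*, *Gnb2*, *Gnb4*, *Gng13*, *Gng2*, *Gng3* and *Gnai1*), 0 were called in limma, and at an adjusted p under 0.05 with no minimum fold *Gnb2*, another β subunit, was higher, from 26.9 ± 2.59 to 46.1 ± 3.81 FPKM (log2 fold change 0.77). Their median log2 fold change was -0.04.

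**Figure D5:**
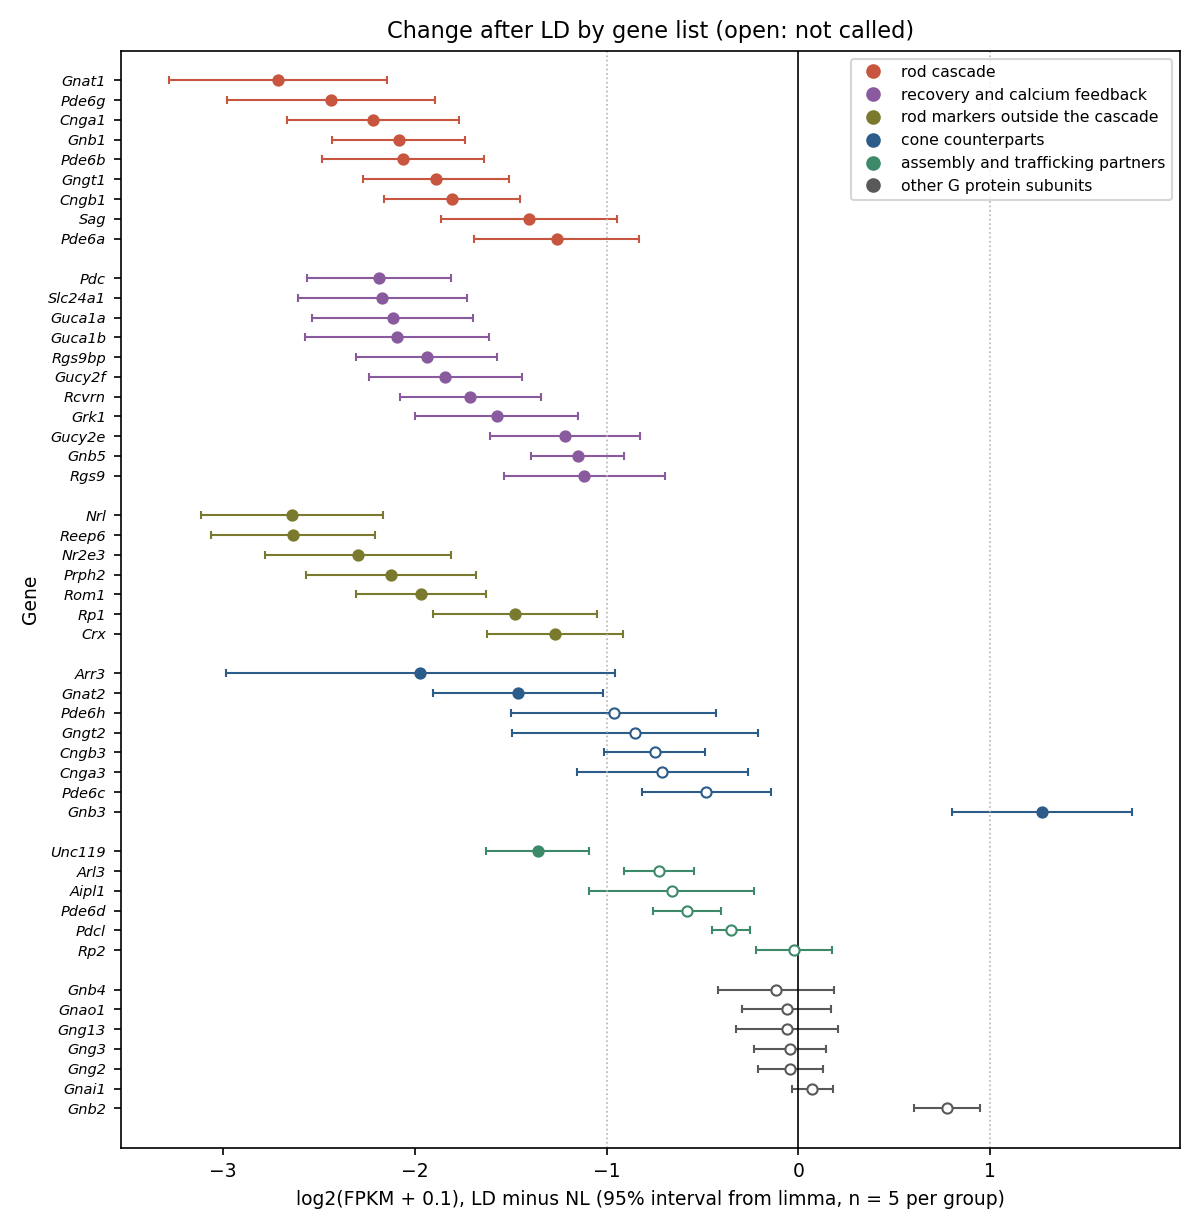
Log2 fold change, LD minus NL on log2(FPKM + 0.1), of the genes of 6 lists with the 95% interval from limma (n = 5 per group; filled points were called, open points not; dotted lines mark 2-fold). The 9 rod cascade genes run from -2.71 to -1.26 and the 11 recovery genes from -2.19 to -1.12, all filled, while *Gnb3* is the single filled point to the right of 0.

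Genes listed as rod markers outside the cascade also fell, 7 of 7 (*Nrl*, *Nr2e3*, *Crx*, *Rom1*, *Prph2*, *Rp1* and *Reep6*). Not all of them are particular to rods. Their median log2 fold change was -2.13, and 6 of 7 were called without LD-4 and LD-6, where *Crx* was under 2-fold. *Nrl*, the factor that sets rod fate, fell from 296 ± 21.9 to 49.7 ± 16.8 FPKM (log2 fold change -2.64 ± 0.21, limma adjusted p = 1e-05), and *Crx*, which acts in rods and cones, from 267 ± 14.2 to 114 ± 28.8 FPKM (log2 fold change -1.27 ± 0.16, limma adjusted p = 0.000199). Of the 5 cone markers, 4 were called lower (*Opn1sw*, *Opn1mw*, *Arr3* and *Gnat2*), with a median of -1.97. *Arr3*, *Gnat2* and the not called *Pde6h* are also cone counterparts. *Opn1sw* and *Opn1mw* each lost their call in 3 of 24 alternatives, and *Arr3* in 14. The markers of amacrine (4), horizontal (3) and ganglion cells (4), of the pigment epithelium (5) and of endothelium (4) had 0 calls in limma, and at an adjusted p under 0.05 with no minimum fold 1 horizontal marker was lower. Their medians were -0.08, -0.39, -0.07, 0.17 and 0.42.

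Of the 6 markers of microglia and macrophages, 4 were called higher (*C1qa*, *Tyrobp*, *Aif1* and *Cx3cr1*), and the summed FPKM of the 6 went from 16.2 to 27.9 under NL to 34.6 to 88.3 after LD. The not called *P2ry12* had a mean of 2.03 ± 0.28 FPKM in the NL and 1.32 ± 0.75 FPKM in the LD retinas (log2 fold change -0.74, limma adjusted p = 0.122), and *C1qa*, the most abundant of the 6, at 10.1 ± 3.61 and 37.3 ± 12.8 FPKM. *Aif1* lost its call in 7 of 24 alternatives, also without NL-5, NL-7 or NL-8 (adjusted p up to 0.0343 in limma). Of the 4 Müller glia markers, 1 was called lower, *Glul*, glutamine synthetase, from 711 ± 94.8 to 165 ± 8.77 FPKM (log2 fold change -2.09 ± 0.10, limma adjusted p = 1.99e-07). Another, *Slc1a3*, a glutamate transporter, was higher at an adjusted p under 0.05 with no minimum fold, from 26.2 ± 1.79 to 37.5 ± 7.58 FPKM without overlap (log2 fold change 0.50 ± 0.12, limma adjusted p = 0.0109). All markers of these lists passed the filter on low values. The 9 rod genes made up 2.55% of the FPKM of a retina under NL (median) and 0.733% after LD. The part of the other cell types in the lower share was not tested.

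Of the 9 genes, 3 share their place in the genome with a pseudogene of few reads. *Gm13171* overlaps *Gnb1* on the opposite strand, with 3 to 27 reads per retina, and *Rps2-ps10* overlaps *Pde6a* on the opposite strand, with 63 to 297 reads. *Gm5297* overlaps *Cnga1* on the same strand, with 19 to 181 reads. *Cnga1* itself was the gene closest to the mean of the other 8 over the 10 retinas (Pearson's r = 0.999 of the log2 values, most of it the distance between the groups), and *Pde6a* and *Sag* were the farthest, with r = 0.954 and 0.973.

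By the same measure, *Ybx3*, *Slc24a1*, *Pdc* and *Rgs9bp* were among the 5 protein-coding genes outside the set most like the mean of the 9 genes, of 12680 considered, with r of 0.9987, 0.9987, 0.9979 and 0.9979. *Ybx3*, a cold shock domain protein that binds nucleic acids, fell from 124 ± 4.07 to 55.8 ± 10.2 FPKM (log2 fold change -1.17 ± 0.11, limma adjusted p = 3.56e-05). These correlations describe the pattern over the 10 retinas, which share the LD and NL groups, and were not tested.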

How the data were processed

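RNA-seq of 10 neural retinas was analysed, 5 LD and 5 NL as named in the sample labels. RNA was extracted with TRIzol, and the submitters' processing notes name Bowtie2 2.0.6, TopHat2 2.0.9 and the build mm8. The authors deposited 1 table of FPKM values with gene positions and lengths. The positions are those of GRCm38, and 54409 identifiers, the 9 members included, are in GENCODE M21. The counting program, the use of strand and the annotation are not given in the sources used here. FPKM times length was a whole multiple of 1 read's worth for 100% of the values (tolerance 0.01), which gave the depth, 18965090 to 26832535 reads. A factor per retina in the FPKM was 0.951 to 0.968 for NL and 1.04 to 1.07 for LD.

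From the deposited FPKM, log2(FPKM + 0.1) of the 24508 genes that reached 0.1 FPKM in 5 or more retinas was fitted in limma 3.58.1 (R 4.3.3) with an intensity trend and Benjamini-Hochberg adjustment. This scale makes the changes of low genes look smaller. Genes with an adjusted p under 0.01 and over 2-fold were called, the thresholds of the paper's text. Two-sided exact permutation tests used scipy 1.17.1. The model was tested on simulated data. The text names the 9 members, the listed genes and 4 of the 5 genes most like the members. The members and lists were chosen with earlier results of these data known. Sequences are from RefSeq (GRCm38.p6). The 25 alternatives changed pseudocount, filter, scaling, test, thresholds, replicate block and retinas; leaving out LD-4 and LD-6 and the use of transcript length were added after the values were seen. Some genes are not reported here.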

Additional observations from a re-analysis of the deposited data

Results flagged for a closer look

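The highest or lowest retina of a group was compared with the others by Dixon's criterion in 38 groups of 5 values, and 3 stood apart, where chance gives 1.9. *Pde6g* was lowest under NL in NL-8, at 416 FPKM, while the rest of the group had 533 to 567 FPKM. *Pde6c*, the cone phosphodiesterase, was highest after LD in LD-8, at 18.4 FPKM. NL-8 had the most reads of the NL group, 26832535. Without NL-8 the call of *Pde6g* was the same.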

How the results depend on the processing

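Under 25 alternatives, no member changed direction. All 9 were called lower in each, except under quantile normalization (7), with the replicate number as a block (7; *Pde6a* -1.11, adjusted p = 0.0189, and *Sag* -1.31, adjusted p = 0.01, in limma) and without LD-4 and LD-6 (8). The replicate numbers shared by the groups do not pair the retinas (correlation of deviations 0.06, 0.07, -0.01 and -0.09 for numbers 1, 4, 7 and 8, and the closest LD number was 7, 4, 8 and 1), and the block leaves 8 retinas, with 258 genes lower and 550 higher, against 369 lower in the same 8 retinas without it.

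Beside 582 genes lower and 1013 higher, the counts were 312 and 504 with a pseudocount of 1, 3275 and 3543 at an adjusted p under 0.05 with no minimum fold, 366 lower with the closest pairs averaged, 368 lower without LD-4 and LD-6, and 664 higher with a filter at 1 FPKM. The cone counterparts called lower were 1 instead of 2 with no filter, as TPM, without the factor per retina, without the trend, with the replicate block, in its 8 retinas without it and with the pairs averaged, 6 at an adjusted p under 0.05 with no minimum fold, and 1 to 3 when 1 retina was left out. Of the assembly partners, 0 were called lower under quantile normalization and 5 at an adjusted p under 0.05 with no minimum fold. The cause was not tested. The pairs of members that differed were 24 to 29 when 1 retina was left out and 0 without LD-4 and LD-6, where the smallest adjusted p of the exact permutation tests was 0.0714. Without the factor per retina the median of all genes was 0.11 instead of -0.01, and *Pde6a*, the member that fell least, was at -1.13. In the order of loss 9 of 9 genes kept their place, except 2 under quantile normalization, and 7 without NL-4 and without LD-8, where *Gnb1* and *Pde6b* changed places. With 1992 reads or more per gene and retina, depth does not limit these values.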
